A study of Mus musculus with 2 samples.

Results

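Ntrk2 encodes TrkB, the receptor for brain-derived neurotrophic factor (BDNF), and was followed here across the cells of the mouse retinal pigment epithelium (RPE) layer together with 5 other neurotrophin genes. These were the receptor genes Ntrk3, Ngfr and Sort1 and the ligand genes Bdnf and Ntf3. All 6 were found by symbol among the 32285 genes of the count matrices. The series held 2 libraries of single cells from the RPE layer of male C57BL/6J mice aged 3 months, made with the 10x 5′ kit. Control mice received 1 µl of phosphate-buffered saline (PBS) under the retina, and Dox mice received 1 µl of doxorubicin at 100 ng/µl, a DNA-damaging drug used at this low dose to induce senescence of the RPE. Cells were taken 7 days later. Each condition was a single library pooled from 10 eyes of 5 mice, so animals could not be told apart and no difference between the conditions had a replicate check. The control mice also underwent the subretinal injection, no uninjected eyes were included, and the methods did not separate cells near the injected area from the rest.

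Neurotrophins are secreted growth factors. Mature BDNF and neurotrophin-4 bind TrkB and neurotrophin-3 binds mainly TrkC, and each Trk receptor is a tyrosine kinase that signals through SHC and FRS2 adaptors, the Ras to ERK and PI3K to AKT routes and phospholipase C gamma. All neurotrophins, and their uncleaved precursors in particular, also bind the receptor p75, which acts with sortilin, the product of Sort1. In the eye, BDNF supports the survival of retinal neurons, and the RPE is among the cells known to make neurotrophins and their receptors. Ntrk2 gives a full-length kinase and truncated forms that lack the kinase, and counts summed per gene cannot tell these apart.

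In the GENCODE vM21 annotation of GRCm38, Ntrk2 (ENSMUSG00000055254) lies on the plus strand of chromosome 13, from 58806569 to 59133970, with 7 coding transcripts from 6 starts. Ntrk3 (ENSMUSG00000059146) lies on the minus strand of chromosome 7, from 78175959 to 78738012, and Ngfr (ENSMUSG00000000120) on the minus strand of chromosome 11, from 95568818 to 95587735. Sort1 (ENSMUSG00000068747) lies on the plus strand of chromosome 3, from 108284082 to 108361511. Bdnf (ENSMUSG00000048482) lies on the plus strand of chromosome 2, from 109674700 to 109727007, with 11 coding transcripts from 9 starts. Ntf3 (ENSMUSG00000049107) lies on the minus strand of chromosome 6, from 126101412 to 126166910. Since Ntrk2 was the member that differed most clearly between groups of RPE cells, the 250 bases before its most upstream start, the 1 window that the RefSeq table held for it, are printed here from RefSeq (GRCm38.p6, chr13:58806319-58806568, plus strand).
Ntrk2 promoter: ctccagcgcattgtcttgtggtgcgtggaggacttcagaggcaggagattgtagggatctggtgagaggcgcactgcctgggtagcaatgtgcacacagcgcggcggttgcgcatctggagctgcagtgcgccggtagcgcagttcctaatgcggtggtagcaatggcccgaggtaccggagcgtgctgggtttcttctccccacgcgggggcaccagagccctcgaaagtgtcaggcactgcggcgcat
None of the 5 motifs searched on both strands was in this window, so no letter is in capitals. They were the STAT motif TTCNNNGAA (held by 7.02% of 32851 promoters of this length), the cAMP response element TGACGTCA (1.55%), the E-box CACGTG (6.02%), the GC box GGGCGG (32.7%) and a p53 half-site (7.13%). The half-site was searched as RRRCWWGYYY, where R is A or G, W is A or T and Y is C or T. The lack of a match says only that these letters were not found in these 250 bases, and the windows before the other starts were not searched.

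RPE cells were those with at least 10 unique molecular identifiers (UMIs, each standing for 1 captured RNA molecule) of Rpe65, the retinoid isomerase of the visual cycle. There were 1526 such cells in the control library and 1630 in the Dox library, with a median of 16013.5 and 18115.5 UMIs per cell, of 20180 and 15426 cells kept. All 9 RPE markers were detected in both. The gate also held cells that clustered with other types, since 85.5% of control and 85.0% of Dox RPE cells fell in the RPE-like cluster. Rpe65 UMIs were found widely: in NK or T-like cells, which should lack the gene, its level was 266 and 301 CPM (UMIs per 1000000 UMIs of the group). The libraries shared 441 cell barcodes, 3 of them among RPE cells of both. RPE cells were also divided by Serpina3n, an acute-phase serine protease inhibitor, at 1000 CPM of the cell's own UMIs. Serpina3n-high cells numbered 15 in control (0.983%, exact Clopper-Pearson 95% interval 0.551 to 1.62%) and 208 in Dox (12.8%, 11.2 to 14.5%), with 8 and 23 cells within 20% of that limit. The nearest cells below and above it had 997 and 1061 CPM in the control library, and 994 and 1008 CPM in the Dox library. All intervals below are 95% intervals that cover counting error only.

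Of the ligands, Bdnf was the one best covered in RPE cells. It had 801 UMIs in control (30.4 CPM, exact Poisson interval 28.4 to 32.6) and 889 in Dox (28.5 CPM, 26.7 to 30.4). The log2 ratio of Dox over control was −0.10 (exact binomial interval −0.23 to 0.04), a difference within counting error. At least 1 Bdnf UMI was found in 33.9% of control and 35.6% of Dox RPE cells, against 1.63% and 1.98% of NK or T-like cells, whose median depths were 3808 and 4005 UMIs. Ntf3 had 51 UMIs in each library, at 1.94 and 1.63 CPM (log2 ratio −0.25, −0.83 to 0.34). Ntf5, which encodes neurotrophin-4, was sparser still, with 2 and 5 UMIs. RPE cells of both libraries therefore held a TrkB ligand transcript, Bdnf, at a level that did not differ between them beyond counting error.

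Among the receptors, Ntrk2 had 4183 UMIs in control RPE cells (159 CPM, 154 to 164) and 6126 in Dox RPE cells (196 CPM, 191 to 201). The log2 ratio was 0.30 (0.25 to 0.36), a 1.24-fold higher level in the Dox library. At least 1 Ntrk2 UMI was found in 72.7% and 76.7% of RPE cells, against 5.13% and 9.49% of NK or T-like cells. Sort1, whose product sortilin binds precursor neurotrophins and sorts proteins between Golgi and endosomes, had 1510 UMIs (57.4 CPM, 54.5 to 60.4) and 1784 UMIs (57.2 CPM, 54.6 to 59.9), with a log2 ratio of −0.01 (−0.10 to 0.09). Ntrk3, encoding TrkC, had 128 and 126 UMIs (4.86 and 4.04 CPM; log2 ratio −0.27, −0.63 to 0.10). Ngfr, encoding p75, was near its limit of detection in RPE cells, with 7 UMIs in control (0.266 CPM) and 5 in Dox (0.160 CPM). Of the 5 members with at least 20 UMIs over both groups, none was 2-fold or more different between the libraries, where 0.936% of 14215 genes were higher by that size and 3.26% lower.

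Between the libraries, Ntrk2 did not differ beyond counting error in Serpina3n-low cells and did in Serpina3n-high cells. In Serpina3n-low cells Ntrk2 stood at 158 CPM in control (153 to 163, 1511 cells) and 155 CPM in Dox (150 to 160, 1422 cells), with a log2 ratio of −0.02 (−0.09 to 0.04). In Serpina3n-high cells it stood at 230 CPM in control (188 to 278, 104 UMIs in 15 cells) and 386 CPM in Dox (369 to 402, 2146 UMIs in 208 cells), with a log2 ratio of 0.75 (0.46 to 1.05), or 1.68-fold. This last ratio rests on the 15 control cells and was 0.34 when each cell was thinned to 5000 UMIs. Within the Dox library, the high cells exceeded the low cells by 1.31 on the log2 scale (1.24 to 1.39), or 2.48-fold, where the median of all genes tested was −0.19. Within control, the same log2 ratio was 0.54 (0.25 to 0.82). The interval of the high cells overlapped that of the low cells in neither library.

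Single cells showed the same order. The median Ntrk2 level per cell was 118 CPM in Serpina3n-low control cells and 113 CPM in Serpina3n-low Dox cells, against 198 CPM in Serpina3n-high control cells and 352 CPM in Serpina3n-high Dox cells. In the last group the middle of the distribution ran from 210 CPM at the lower quartile to 466 CPM at the upper, and the highest cell held 952 CPM. High cells were also deeper than low cells, with median totals of 33954 against 15957 UMIs in control and 28244 against 16608 in Dox. After thinning to 5000 UMIs per cell, which left out 185 and 189 low cells and 1 and 13 high cells of the control and Dox libraries, a Ntrk2 UMI remained in 47.2% (44.5 to 49.9%) of low control and 49.7% (46.9 to 52.5%) of low Dox cells. The thinned share was 78.6% (49.2 to 95.3%) in high control and 80.5% (74.2 to 85.8%) in high Dox cells. Before thinning it was 72.5% and 74.3% in low cells and 93.3% in the high cells of each library.

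**Figure D1:**
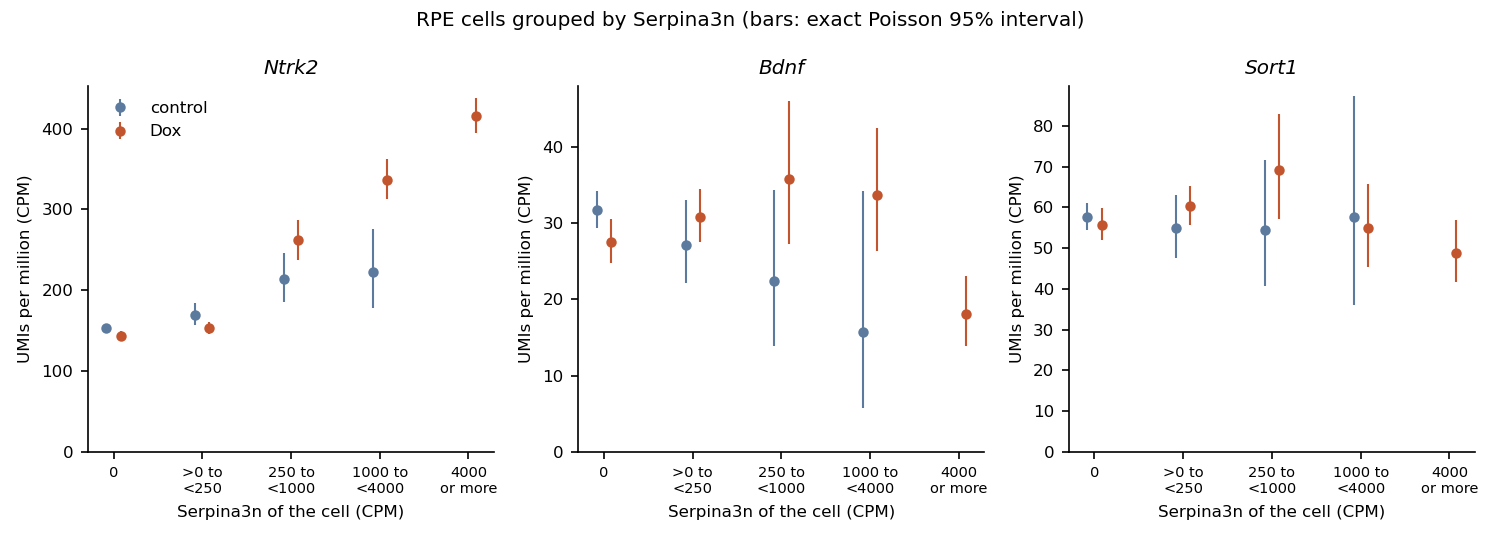
Level of Ntrk2, Bdnf and Sort1 (y axes, CPM) in RPE cells grouped by the Serpina3n level of the cell (x axis, CPM), with control and Dox as separate points and bars as exact Poisson 95% intervals; bins with fewer than 10 cells are not drawn. In Dox cells Ntrk2 goes from 143 CPM where Serpina3n is 0 to 416 CPM where it is 4000 CPM or more, while Bdnf (27.6 and 18.1 CPM) and Sort1 (55.8 and 48.9 CPM) have no steady course between these ends.

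Divided into finer steps of Serpina3n, chosen after the data were seen, Ntrk2 in the Dox library was 143 CPM in the 780 RPE cells with no Serpina3n UMI and 153 CPM in the 511 cells above 0 and below 250 CPM. It was 262 CPM in the 131 cells from 250 to below 1000 CPM, 337 CPM in the 90 cells from 1000 to below 4000 CPM and 416 CPM in the 118 cells at 4000 CPM or more. Each step was higher than the one before it, but the intervals of the first 2 overlapped (137 to 150 and 146 to 161 CPM). In control the levels in the first 4 steps were 153, 170, 214 and 223 CPM, in 1294, 168, 49 and 13 cells, and the 2 control cells of the last step had 267 CPM. The control intervals of steps 1 and 2 overlapped, as did those of steps 3 to 5. Serpina3n was 68.1 CPM in the second Dox step, beside 91.6 CPM in Dox NK or T-like cells. The third Dox step held shallow cells, at a median of 7073 UMIs, of which 61.8% fell in the RPE-like cluster. Counting only RPE cells of the RPE-like cluster, the Dox levels were 146, 157, 283, 336 and 418 CPM and the control levels 159, 179, 229, 235 and 267 CPM, so the order was the same there. Rpe65, the gene of the gate, went the other way in Dox, with 5819, 5433, 3327, 2455 and 1643 CPM over the 5 steps. In control it was 5210, 4401, 2782 and 2258 CPM over the first 4 steps, and 4078 CPM in the 2 cells of the last.

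Markers of other cell types also differed between the high and low RPE cells of the Dox library. The 12 fibroblast markers summed to 603 CPM in high and 1857 CPM in low cells, the 10 macrophage or antigen-presenting markers to 113 and 205 CPM, and the 10 melanocyte markers to 3708 and 1973 CPM. Of the 10 melanocyte markers, 2 were past 2-fold higher and 0 lower, with a median log2 ratio of 0.02. That list includes Gpnmb, which the paper gives as a marker of an RPE cluster led by Serpina3n. Of the 8 Muller glia or astrocyte markers, which include the RPE gene Rlbp1, 4 were detected in the high cells of each library. They summed to 3457 CPM in high and 3830 CPM in low Dox cells and to 2153 and 3701 CPM in high and low control cells, with Gfap, Aqp4, Slc1a3 and Kcnj10 at 0 in the high cells of both. The part of the other lists in the Ntrk2 difference was not tested. Cells of the RPE-like cluster also held fibroblast markers, at 857, 1059, 926, 422 and 612 CPM over the rising Serpina3n steps of Dox. In this cluster alone, Ntrk2 was 387 CPM (371 to 404) in the high and 159 CPM (154 to 164) in the low Dox cells. In control the same cluster gave 240 CPM (196 to 291) and 164 CPM (159 to 169).

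The other members did not share the course of Ntrk2. In the Dox library Bdnf was 24.1 CPM (134 UMIs) in Serpina3n-high and 29.5 CPM (755 UMIs) in Serpina3n-low cells, a log2 ratio of −0.29 (−0.57 to −0.02) close to the all-gene median of −0.19. In control it was 13.3 CPM from 6 UMIs in high cells and 30.7 CPM in low cells (−1.21, −2.66 to −0.09). Sort1 was 51.2 CPM (285 UMIs) in high and 58.5 CPM (1499 UMIs) in low Dox cells, a log2 ratio of −0.19 (−0.38 to −0.01) that equals the all-gene median to the second decimal. Both negative signs turned when cells with 3 Rpe65 UMIs or more were taken, to 0.21 for Sort1 and 0.038 for Bdnf. Ntrk3 was 1.80 CPM (10 UMIs) in high and 4.53 CPM (116 UMIs) in low Dox cells, a log2 ratio of −1.33 (−2.43 to −0.40). Counting only RPE cells of the RPE-like cluster, this ratio was −0.47, which is under 2-fold. Ntrk3 was highest in fibroblast-like cells, and the part of fibroblast RNA in the ratio was not tested. Ntf3 was 1.08 CPM (6 UMIs) in high and 1.76 CPM (45 UMIs) in low Dox cells (−0.70, −2.22 to 0.53). Ngfr had 0 UMIs in the high Dox cells, where a floor of 3 UMIs would be 0.539 CPM. Of the 5 members tested, Ntrk2 was past 2-fold higher and Ntrk3 past 2-fold lower, where 2.7% of 13111 genes were higher and 10.2% lower. For Dox over control in the high cells, 3 members could be tested and none was past 2-fold, where 7.97% of 9979 genes were higher and 7.4% lower.

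Ligand and receptor transcripts were found in the same RPE cell at shares at or a little above the product of their separate shares. Ntrk2 and Bdnf UMIs occurred together in 28.7% (26.4 to 31.0%) of control and 31.0% (28.8 to 33.4%) of Dox RPE cells, beside products of 24.7% and 27.3%. Ntrk2 and Sort1 occurred together in 47.8% and 50.4% of them, beside products of 42.7% and 45.7%. Deeper cells show more of every gene, and the part of depth in these shares was not tested. In the Serpina3n-high Dox cells Ntrk2 and Bdnf occurred together in 37.5% (30.9 to 44.5%), beside a product of 37.2%.

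Cdkn1a, the gene of the cell-cycle inhibitor p21 and a p53 target, was used for a further split of the Serpina3n-low cells, also chosen after the data were seen. The split was not separate from Serpina3n. Over the first 3 Serpina3n steps Cdkn1a was 41.7, 60.2 and 346 CPM in Dox and 42.9, 67.8 and 77.0 CPM in control. Ntrk2 was 147 CPM in Dox cells with no Cdkn1a UMI (968 cells), 155 CPM in those above 0 and below 250 CPM (317 cells) and 220 CPM (200 to 241) in those at 250 CPM or more (137 cells). In control the same groups gave 163, 155 and 104 CPM (87.5 to 123 for the last, from 101 cells). The group with most Cdkn1a thus had the highest Ntrk2 level in Dox and the lowest in control. It also held other cells: 58.4% of it in Dox and 51.5% in control fell in the RPE-like cluster, and fibroblast markers summed to 4976 and 8348 CPM. Within the RPE-like cluster the levels were 150, 158 and 260 CPM in Dox (235 to 286 for the last, from 80 cells) and 167, 163 and 120 CPM in control (98.3 to 145, from 52 cells). Among the Serpina3n-high Dox cells the levels over the same Cdkn1a groups were 370 CPM (19 cells), 338 CPM (88 cells) and 431 CPM (101 cells).

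**Figure D2:**
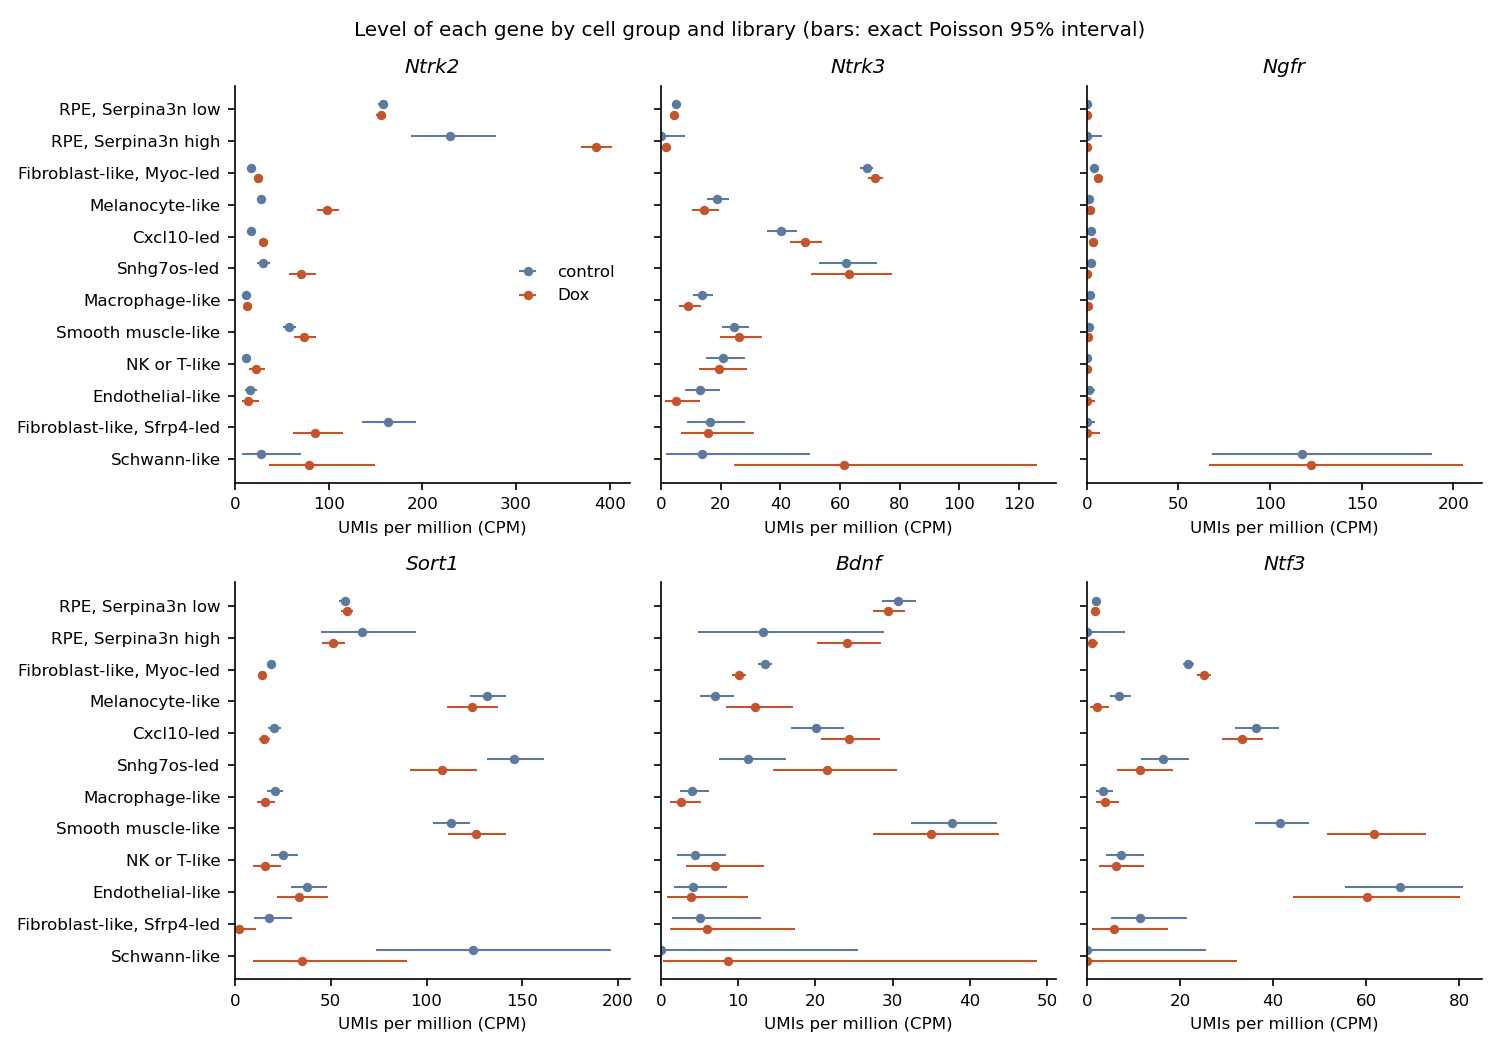
Level of each of the 6 genes (x axes, CPM, a separate scale for each gene) in RPE cells by Serpina3n and in the clusters of the remaining cells (y axis), for control and Dox; bars are exact Poisson 95% intervals. Ntrk2 is highest in the Serpina3n-high RPE cells of the Dox library at 386 CPM, Ntrk3 is at 69.0 and 71.8 CPM in Myoc-led fibroblast-like cells, Ngfr at 118 and 122 CPM in Schwann-like cells, and Ntf3 at 67.3 and 60.2 CPM in endothelial-like cells.

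Across the cells outside the RPE gate, Ntrk2 was 21.8 CPM in control and 32.1 CPM in Dox, so RPE cells exceeded them by 7.29-fold and 6.12-fold. Bdnf exceeded them by 2.21-fold and 2.31-fold and Sort1 by 1.59-fold and 2.30-fold. Ntrk3, Ngfr and Ntf3 were lower in RPE cells than in the rest, with log2 ratios of −3.49, −3.68 and −3.51 in control and −3.89, −5.00 and −3.91 in Dox. The 6 genes thus fell in separate places, with Ntrk2, Bdnf and Sort1 higher in RPE cells than in all other cells pooled and the other 3 lower. This did not hold against every single cluster. In control, Sfrp4-led cells held 163 CPM of Ntrk2 beside 159 CPM in RPE cells, and smooth muscle-like cells 37.6 CPM of Bdnf beside 30.4 CPM. Sort1 was higher in several clusters than in RPE cells.

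Between Dox and control, few member ratios were past 2-fold in these clusters. In melanocyte-like cells 1 of 5 members tested was higher and 1 lower, where 4.1% of genes were higher and 2.82% lower. In the Snhg7os-led cluster 1 of 5 was higher, where 2.74% of genes were higher and 2.15% lower. In endothelial-like cells 1 of 4 was lower (1.47% of genes higher, 3.27% lower), and in Schwann-like cells 1 of 2 was lower (3.7% higher, 4.61% lower). No member tested was past 2-fold in the Myoc-led cells (0.679% higher, 2.37% lower), the Cxcl10-led cluster (0.662% and 1.51%), macrophage or antigen-presenting-like cells (1.27% and 2.2%), smooth muscle-like cells (1.09% and 2.38%), NK or T-like cells (1.29% and 3.66%) or the Sfrp4-led cells (3.45% and 3.5%). In the Sfrp4-led cells only 2 of 6 members had enough UMIs to be tested. Sort1, which had too few, stood at 14 UMIs (17.7 CPM) in control and 1 UMI (1.98 CPM) in Dox. Its log2 ratio there was −3.16 (−8.56 to −0.44).

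Cells of the RPE-like cluster that missed the gate with fewer than 10 Rpe65 UMIs held 150 CPM of Ntrk2 in control (117 to 188, 81 cells) and 231 CPM in Dox (191 to 277, 77 cells). Their Serpina3n levels were 244 CPM in control and 4685 CPM in Dox. Outside the gate and this cluster, the highest Ntrk2 level in control was in fibroblast-like cells led by Sfrp4, a secreted Wnt inhibitor, at 163 CPM in control (136 to 193, 129 UMIs in 115 cells) and 85.2 CPM in Dox (61.6 to 115, 43 UMIs in 68 cells). Of the clusters compared, this alone had a lower Ntrk2 level in Dox by more than counting error, with a log2 ratio of −0.93 (−1.47 to −0.43). Smooth muscle-like cells followed in control at 57.4 CPM (50.8 to 64.6), with 74.0 CPM (63.0 to 86.3) in Dox. Below them in control came an unnamed cluster led by Snhg7os at 29.9 CPM and melanocyte-like cells at 27.2 CPM, whose intervals overlapped. An unnamed cluster led by Cxcl10 (17.1 CPM), the Myoc-led fibroblast-like cells (17.0), endothelial-like (15.9), macrophage or antigen-presenting-like (12.1) and NK or T-like cells (11.4) overlapped their neighbours in this order. Schwann-like cells held 4 and 9 Ntrk2 UMIs and cannot be placed.

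In Dox, Ntrk2 was 98.5 CPM (87.2 to 111) in melanocyte-like cells, 3.63-fold above control, and 70.7 CPM (57.5 to 86.1) in the Snhg7os-led cluster, 2.37-fold above control. These were the members past 2-fold higher in the 2 clusters. Rpe65 moved with them, from 517 to 1427 CPM (2.76-fold) in melanocyte-like cells and from 635 to 1037 CPM (1.63-fold) in the Snhg7os-led cluster. Melanocyte-like cells were shallow, at medians of 1205 and 764.5 UMIs in the control and Dox libraries. Of the 8 RPE markers tested in them, 7 were past 2-fold higher in Dox and 0 lower, with a median log2 ratio of 1.48. Serpina3n was 12.7-fold higher in Dox there. The leading gene of this cluster was Hbb-bs. A finer clustering gave an unnamed Hbb-bs-led cluster of 2321 cells, at a median of 719 UMIs and 2382 CPM of Rpe65. The melanocyte cluster there held 1936 cells and 405 CPM of Rpe65, RPE-gate cells included in both. The part of RPE RNA in the Ntrk2 levels of melanocyte-like and Snhg7os-led cells was not tested. In the Myoc-led cells Ntrk2 was 17.0 and 24.7 CPM (log2 ratio 0.54, 0.42 to 0.66), in the Dox cells of the Cxcl10-led cluster 29.8 CPM (0.81, 0.47 to 1.15) and in those of the NK or T-like cluster 21.9 CPM (0.95, 0.10 to 1.81, from 23 and 28 UMIs). Macrophage or antigen-presenting-like cells stood at 12.9 CPM and endothelial-like cells at 14.1 CPM in Dox, both within counting error of control. Rpe65 stood in control and Dox at 266 and 301 CPM in NK or T-like cells and at 211 and 286 CPM in macrophage or antigen-presenting-like cells. It stood at 206 and 337 CPM in endothelial-like, 196 and 271 CPM in Myoc-led, 230 and 300 CPM in Cxcl10-led and 219 and 291 CPM in smooth muscle-like cells. The part of RPE RNA in the Ntrk2 levels of these clusters was not tested either.

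Ntrk3 was highest in the Myoc-led fibroblast-like cells, the largest cluster, at 69.0 CPM in control (66.9 to 71.1) and 71.8 CPM in Dox (69.5 to 74.3). Myoc encodes myocilin, a secreted protein of the eye's outflow tissue. The Snhg7os-led cluster stood at 62.1 and 62.9 CPM and the Cxcl10-led cluster at 40.3 and 48.4 CPM. The Myoc-led and Snhg7os-led levels did not differ beyond their intervals in either library. Schwann-like cells held 2 and 7 UMIs of Ntrk3 and cannot be placed. In endothelial-like cells Ntrk3 was past 2-fold lower in Dox, with 22 UMIs (13.0 CPM) in control and 4 UMIs (5.12 CPM) in Dox, and the interval of the log2 ratio included 0 (−1.34, −3.34 to 0.22).

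Ngfr was a gene of the Schwann-like cells, glia of peripheral nerve, where p75 is a known marker. It stood at 118 CPM in control (68.5 to 188, 17 UMIs) and 122 CPM in Dox (66.9 to 205, 14 UMIs), in 29.2% of 48 and 31.2% of 32 cells. Every other cluster held at most 6.23 CPM. NK or T-like cells had none, where a floor of 3 UMIs would be 1.48 CPM in control and 2.35 CPM in Dox. The Myoc-led cells held most of its UMIs by number, 243 in control (4.12 CPM) and 304 in Dox (6.23 CPM), a log2 ratio of 0.60 (0.35 to 0.85).

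Sort1 was higher in several other clusters than in RPE cells. In control it stood at 146 CPM (131 to 161) in the Snhg7os-led cluster, 132 CPM (123 to 141) in melanocyte-like, 124 CPM (73.7 to 197) in Schwann-like and 113 CPM (103 to 123) in smooth muscle-like cells, and neighbours in this order overlapped. In Dox these were 108, 124, 35.0 and 126 CPM, the Schwann-like value from 4 UMIs. The Schwann-like difference was past 2-fold (log2 ratio −1.83, −3.85 to −0.23, from 18 UMIs in control). In the Myoc-led cells Sort1 was 18.6 and 14.0 CPM (−0.41, −0.55 to −0.27).

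Bdnf outside RPE cells was highest in smooth muscle-like cells, at 37.6 CPM in control (32.3 to 43.5) and 34.9 CPM in Dox (27.5 to 43.7). These intervals overlapped those of RPE cells in both libraries. The Cxcl10-led cluster held 20.02 and 24.3 CPM. In the Myoc-led cells Bdnf was 13.4 and 10.1 CPM (−0.41, −0.57 to −0.24), with as many as 17 UMIs in 1 cell. It was at or under 7.05 CPM in macrophage or antigen-presenting-like, NK or T-like and endothelial-like cells.

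Ntf3 was highest in endothelial-like and smooth muscle-like cells. Endothelial-like cells stood at 67.3 CPM in control (55.5 to 80.8) and 60.2 CPM in Dox (44.2 to 80.0). Smooth muscle-like cells held 41.6 CPM (36.0 to 47.8) in control and 61.6 CPM (51.6 to 72.9) in Dox, a log2 ratio of 0.57 (0.24 to 0.89). The 2 levels overlapped in Dox and not in control. The Cxcl10-led cluster held 36.3 and 33.2 CPM and the Myoc-led cells 21.7 and 25.1 CPM (0.21, 0.09 to 0.32). In melanocyte-like cells Ntf3 had 41 UMIs in control (6.96 CPM) and 6 in Dox (2.16 CPM), past 2-fold lower (−1.69, −3.22 to −0.45).

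Beyond the members, the wider pathway was a list of 106 genes in 8 roles, the members included. In RPE cells 92 had at least 20 UMIs over both libraries. Of these, 0 were past 2-fold higher in Dox and 1 lower, where 0.936% of 14215 genes were higher and 3.26% lower. The median log2 ratio of the list was −0.02, as was that of all genes tested. The lower gene was Mmp3, a secreted protease that can cleave precursor neurotrophins, whose level was 7.87 CPM in control against 1.54 CPM in Dox. Mmp3 was also among the 10 leading genes of a fibroblast-like cluster when clusters were made without integration. The 12 fibroblast markers summed to 2443 CPM in control and 1634 CPM in Dox RPE cells. The part of fibroblast RNA in the Mmp3 difference was not tested.

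**Figure D3:**
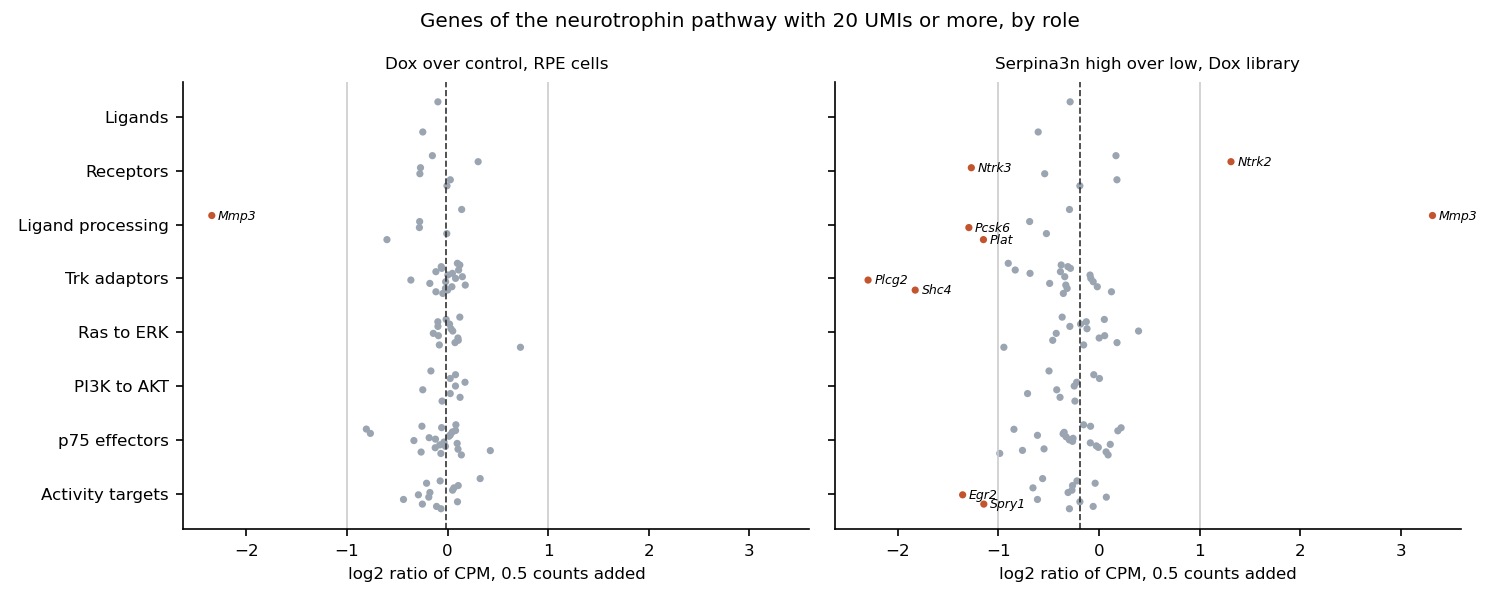
Log2 ratio of CPM with 0.5 counts added (x axes) for the genes of the pathway list with at least 20 UMIs over both groups, by role (y axis); points past 2-fold are coloured and named, solid lines mark 2-fold, and the dashed line is the median of all genes tested. Dox over control in RPE cells leaves 1 of 92 genes past 2-fold, Mmp3 (all genes: 0.936% higher, 3.26% lower). Serpina3n-high over Serpina3n-low in the Dox library has 2 of 91 higher and 7 lower (all genes: 2.7% and 10.2%).

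In Serpina3n-low cells Mmp3 was again the 1 gene past 2-fold between the libraries, of 92 tested, where 0.554% of 14079 genes were higher and 2.86% lower. Within the Dox library, 91 genes of the list were tested between high and low cells, and Ntrk2 and Mmp3 (33 against 15 UMIs) were past 2-fold higher. There were 7 past 2-fold lower, where 2.7% of all genes were higher and 10.2% lower, with a list median of −0.29 beside −0.19 for all genes. These were Ntrk3, Pcsk6, a precursor convertase gene (3 UMIs against 39), and Plat (4.67 against 10.5 CPM), which encodes the activator of plasmin, a protease that cleaves precursor BDNF. The rest were the adaptor gene Shc4 (1 UMI against 24), the phospholipase gene Plcg2 (2 against 56), the immediate early gene Egr2 (3.59 against 9.40 CPM) and Spry1, a feedback inhibitor of ERK signalling (11.3 against 25.2 CPM). For Dox over control in Serpina3n-high cells, 12 of 79 genes tested were past 2-fold higher and 4 lower, where 7.97% of all genes were higher and 7.4% lower. The higher genes were Sh2b3, Plcg1, Crk, Crkl, Rapgef1, Rps6ka3, Ripk2, Dusp4, Dusp6, Spry1, Spry2 and Spry4, with 0 to 20 UMIs each in the control cells, and the lower genes were Sorcs2, Plat, Mmp3 and Pik3ca. The high control cells are so few that these counts describe 15 cells.

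The most abundant genes of each role were present in RPE cells of both libraries, none of them 2-fold apart. Among adaptors, Ptpn11, the phosphatase SHP2, was at 76.8 CPM in control and 75.8 in Dox, and Kidins220, a Trk-bound scaffold, at 39.98 and 44.3. On the ERK route Map2k2 was at 162 and 161 CPM and Map2k1 at 88.5 and 96.3, both encoding MEK kinases. On the AKT route Gsk3b was at 157 and 166 CPM and Bad, a cell death gene, at 58.3 and 59.4. Of the p75 effectors the GTPase gene Rhoa was at 333 and 306 CPM and Maged1, a p75-binding protein gene, at 275 and 281. Sorl1, a sorting receptor related to sortilin, was at 80.0 and 81.6 CPM, and Furin, the main convertase of precursor neurotrophins, at 34.2 and 37.8. The immediate early genes Fos (1352 and 1189 CPM) and Junb (1000 and 738 CPM) were the most abundant activity targets.

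Over the 20 combinations of cell type and library with at least 50 cells, the genes whose log2(CPM + 10) was most like that of Ntrk2 were Nrtn, the growth factor neurturin (Pearson r = 0.91), Fuz (0.91), Ildr2 (0.90), Etnk2 (0.89), Nme5 (0.87), Nrep (0.87), Rhbdl1 (0.86), 1110065P20Rik (0.86), Sema3c (0.85) and Apbb1 (0.85). Bdnf stood at r = 0.52 with Ntrk2 and Sort1 at 0.29. The nearest genes to Ntrk3 were Slc7a2 (0.96), Angpt1 (0.96), Cpm, Smoc1 and Mical2, to Ngfr Arhgap8 (0.91), Foxl1, Tmem200c, Camk2a and Gpld1, and to Sort1 Plxnb1 (0.93), Lbh, Lonp2 and Fam184b. Those nearest to Bdnf were Sh3gl2 (0.92), Rtn4rl1, Calcoco1, Ndrg2 and Pygm, and those nearest to Ntf3 were Tsc22d1 (0.95), Hspb1, Cd200, Rhob and Tm4sf1. Schwann-like cells, where Ngfr was highest, had fewer than 50 cells in each library and were not among these points. The likeness to Ngfr thus rests on its low levels in the other cell types. The points share 2 libraries, differ in depth and include each remaining cell type in both, so these values are a description.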

How the data were processed

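The authors deposited a matrix of UMI counts per gene and cell for each library, made with Cell Ranger 4.0.0 according to the file headers, on the mm10 build, with no normalization. The 2 libraries held 20381 and 15649 cells with 117731270 and 103997248 UMIs. Following the limits of the study, a cell was kept when it had more than 500 UMIs, between 200 and 6000 genes, a mitochondrial share under 0.2 and a ratio of log10 genes to log10 UMIs above 0.8. Among them 20180 and 15426 cells remained, at medians of 4495 and 4995 UMIs. Kept cells were clustered in Seurat 5.3.0 (sctransform 0.4.2, R 4.3.3) on 2963 integration features without the pathway genes, with 40 components at a resolution of 0.1. A cluster was named only where at least 3 markers of a type were at 10 CPM and 2-fold over all other cells, and not where its median UMIs were under 50% of that of all cells with no marker among its 10 leading genes. This naming rule was set after the clusters were seen.

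UMIs were summed per cell group and library (Python 3.11.15, scipy 1.17.1). Levels carry exact Poisson intervals, shares Clopper-Pearson intervals and ratios exact conditional binomial intervals. With 1 library per condition no test was run, and no p-value is given. A gene was past 2-fold when its log2 ratio with 0.5 counts added reached 1 in size and at least 20 UMIs were found over both groups. Doublets were scored with Scrublet (scanpy 1.11.5), whose threshold called 9.62% of control cells and 0 Dox cells and so did not work for Dox. No cell was removed for it, and leaving out the highest scores was an alternative. The median score of low and high RPE cells was 0.128 and 0.310 in control and 0.0885 and 0.136 in Dox. The code was checked on simulated counts. The members and lists were chosen with earlier results of these data known. Named are the members, pathway genes past 2-fold, the 2 most abundant genes of each role and the genes most like each member, and some genes that met these rules are not reported here. Alternatives varied the Rpe65 and Serpina3n limits, cell limits, doublets, depth, the count floor, the added count, the scaling of CPM and the clustering.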

Additional observations from a re-analysis of the deposited data

Results flagged for a closer look

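The Ntrk2 ratio of Dox over control took opposite signs in different cell groups, each with an interval that left out 0. The log2 ratio was 0.30 in RPE cells, 0.75 in Serpina3n-high RPE cells, 0.54 in Myoc-led fibroblast-like cells, 1.86 in melanocyte-like cells, 0.81 in the Cxcl10-led cluster, 1.24 in the Snhg7os-led cluster, 0.37 in smooth muscle-like and 0.95 in NK or T-like cells. In Sfrp4-led fibroblast-like cells it was −0.93, a 1.91-fold lower level in Dox. Bdnf was higher in Dox in melanocyte-like cells (0.81) and the Snhg7os-led cluster (0.93) and lower in Myoc-led cells (−0.41). Ntf3 was higher in Dox in Myoc-led (0.21) and smooth muscle-like cells (0.57) and lower in melanocyte-like cells (−1.69). Rpe65 was also higher in Dox in melanocyte-like (1.46), Snhg7os-led (0.71), Myoc-led (0.46), smooth muscle-like (0.41) and Cxcl10-led cells (0.38). It was higher in the Sfrp4-led cells too (0.48), and within counting error in NK or T-like cells (0.18, −0.02 to 0.37). The part of RPE RNA in the Ntrk2 and Bdnf differences was not tested. None of these differences between cell groups was tested, since each condition was 1 library and the intervals cover counting error only.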

How the results depend on the processing

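No paired analysis was possible because each condition was 1 library, and no library could be left out. Ntrk2 kept its direction in RPE cells (log2 0.24 to 0.32 over 11 alternatives), in Serpina3n-high cells (0.34 to 0.83 over 13) and between high and low cells of Dox (1.25 to 1.77) and control (0.53 to 1.005). In Serpina3n-low cells it ran from −0.12 to 0.04. The values that left their counting interval were 0.24 in RPE cells at 30 Rpe65 UMIs or more, 0.34 in high cells and 1.005 between high and low control cells after thinning to 5000 UMIs (14 high control cells), −0.12 in low cells and 1.77 between high and low Dox cells at 3 Rpe65 UMIs or more, and 1.498 for the last with the all-gene median subtracted. At 3 Rpe65 UMIs or more the high over low ratios of Sort1 (0.21) and Bdnf (0.038) in Dox turned positive. Requiring 100 UMIs in place of 20 left 39 genes past 2-fold higher and 130 lower in RPE cells (133 and 463 before). It left 6 and 110 in low cells (78 and 403) and 233 and 119 in high cells (795 and 738). Between high and low Dox cells it left 196 and 645 (354 and 1336). Fewer genes were tested at this limit, and the part of that in the drops was not tested. Of 221 other values of the 5 remaining members, 202 stayed within the counting interval. Of 252 alternative values for 84 levels by cell type, 243 did so. These came from clusters made another way or from CPM without mitochondrial genes in the total. The cause of the other shifts was not tested. Depth limits Ngfr, Ntf3 and Ntrk3 in RPE cells and every value of the 15 high control cells.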

Other observations

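The limits on cells removed 56 control and 116 Dox cells that had 10 Rpe65 UMIs or more, mostly for too many genes or too much mitochondrial RNA. Their Ntrk2 levels were 197 CPM (177 to 220, exact Poisson interval) in control and 219 CPM in Dox. Their Serpina3n levels were 496 CPM in control and 929 CPM in Dox. They entered no main comparison. Those with a mitochondrial share under 0.2 entered the alternative without limits on genes or complexity.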
